A study of Mus musculus with 6 samples.

Results

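The small leucine-rich proteoglycans are secreted proteins of connective tissue and bone, and 10 of their genes, Dcn, Bgn, Aspn, Lum, Fmod, Prelp, Omd, Kera, Ogn and Podn, were read in sorted cells of the mouse calvarial suture. They were chosen by name as the family of fibrous and bone matrix, and each was read from the only array feature that carries its symbol. All 10 were among the 19938 genes measured. Sorted populations of suture mesenchyme, the Axin2+/GFP+ and the Axin2-/GFP- cells, were compared with 3 samples and 3 arrays each. Both came from mice of postnatal day 28 on a mixed background of C57BL/6J, CD-1 and B6CBAF2 that carried Axin2rtTA, which puts the doxycycline-dependent activator under Axin2 control, and TRE-H2BGFP, a histone-GFP reporter of that activator. All mice had received doxycycline from postnatal day 25 until collection, so the populations share genotype, treatment and age and were parted by GFP. Each sample held cells pooled from 6 to 8 mice, sorted for GFP after release with 0.2% collagenase. The comparison asks how the cells sorted as positive for the Axin2 reporter differ from those sorted as negative.

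Proteins of this family have a core of leucine-rich repeats that curves into a solenoid and binds fibrillar collagen, where it sets the spacing and width of fibrils. Decorin, biglycan and asporin form class I, and the first 2 carry chondroitin or dermatan sulfate chains in skin, tendon and bone. Lumican, fibromodulin, PRELP, osteomodulin and keratocan form class II, several of which carry keratan sulfate, and osteoglycin and podocan belong to further classes. Beyond fibrils, several members bind growth factors of the TGFβ and BMP families.

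In the Axin2+/GFP+ cells Aspn and Bgn were higher, no member was lower, and 8 of the 10 genes did not pass an adjusted p of 0.05 in limma, a linear model with moderated variances applied to the log2 values of all genes at once. Over all genes, 4.64% were called higher and 11.4% lower. At an unadjusted p under 0.05, Aspn and Bgn were higher and Ogn was lower, against 16.3% of all genes higher and 17.6% lower. The methods' t-test with the same adjustment called none of the 10, and 1.06% of all genes higher, while without adjustment it called Aspn, and 14.8% of all genes, higher. The median log2 change of the family was 0.31, beside 0.14 over all genes and -0.57 over the 1719 genes with a mean log2 value of 5 or more. Over the 1194 olfactory and vomeronasal receptor genes described below the median was 0.30, and centred on them the family median was -0.0098.

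The arrays did not share one distribution, and markers of blood cells differed between the populations. The upper quartile of log2 values was 3.72 to 3.76 in the Axin2+/GFP+ samples and 3.97 to 3.999 in the Axin2-/GFP- samples. As a guide to signal without expression, 1194 olfactory and vomeronasal receptor genes had 95th percentiles of 2.999 and 2.73 in the respective populations and a median log2 change of 0.30. The 11 neutrophil markers were all higher in Axin2+/GFP+ cells, with list means of 9.43 to 9.56 against 5.83 to 7.69, and the 9 measured B-lineage markers were all lower, with list means of 2.69 to 3.08 against 7.09 to 7.42. Of 15 measured mesenchymal markers 2 were higher and none was lower by limma, with a median log2 change of 0.28, and without adjustment p lay under 0.05 for 5 higher genes and 0 lower ones. The 2 called were Sparc, the collagen-binding glycoprotein osteonectin, at 1.19 and Serpinh1, a collagen chaperone, at 0.79, and none was called without Axin2-/GFP- replicate 2 or 3 or in the methods' t-test. The list mean of these markers was 3.95 to 4.12 in Axin2+/GFP+ samples and 3.55 to 3.78 in Axin2-/GFP- samples. Of the 15 markers 5 lay at the level of the receptor genes in each population. Centred on the receptor genes the median log2 change of the mesenchymal markers was -0.039, so its sign depended on the scaling. In such pools a larger share of mesenchymal cells and more RNA per cell cannot be told apart, nor either of them from the scaling. Axin2, which drives the reporter, had log2 values of 2.89, 2.54 and 3.07 in Axin2+/GFP+ replicates 1 to 3 and of 2.18, 2.27 and 2.38 in Axin2-/GFP- replicates 1 to 3, and did not pass, though the groups did not overlap (log2 change 0.55, limma-adjusted p = 0.0802). Its level was reached by 7.04% of receptor genes in Axin2+/GFP+ and by 12.3% in Axin2-/GFP- cells. The part of the blood cells in the changes below was not tested.

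Class I held both called genes. Aspn encodes asporin, which binds collagen and TGFβ and occurs in periosteum, ligament and suture. Its log2 values were 6.71, 6.98 and 6.61 in Axin2+/GFP+ replicates 1, 2 and 3 and 6.18, 5.11 and 5.05 in Axin2-/GFP- replicates 1, 2 and 3. The groups did not overlap, and the Axin2+/GFP+ samples lay close together. The means were 6.77 ± 0.19 and 5.45 ± 0.63 (SD, n = 3 each), so the gene differed by 1.32 on the log2 scale (SE 0.30, limma-adjusted p = 0.0207), which is 2.49-fold. The 95% interval of the log2 change ran from 0.63 to 2.002. The call ended without Axin2+/GFP+ replicate 2 (log2 change 1.21) and without Axin2-/GFP- replicate 2 (1.15) or 3 (1.12), and it held in limma under every other scaling tried, at log2 changes from 0.92 to 1.86.

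Bgn encodes biglycan, a proteoglycan of bone matrix that binds collagen and BMPs. It had log2 values of 6.41, 7.64 and 6.43 in Axin2+/GFP+ replicates 1 to 3 and of 5.99, 5.20 and 5.66 in Axin2-/GFP- replicates 1 to 3. The groups did not overlap, and Axin2+/GFP+ replicate 2 stood above its 2 fellows. Bgn differed by 1.21 on the log2 scale, 2.32-fold (SE 0.35, limma-adjusted p = 0.0482), with a 95% interval from 0.42 to 2.01. This call lay close to the threshold. It ended without Axin2+/GFP+ replicate 2 (0.81) or Axin2-/GFP- replicate 1 (1.399), 2 (1.01) or 3 (1.23), and also after median centring (1.12) and after centring on the receptor genes (0.89) or on the mesenchymal markers (0.81). It ended as well with the replicate number as a block (limma-adjusted p = 0.0718). For Aspn, Bgn and Ogn, whose samples did not overlap, an exact permutation test over the samples gave a two-sided p of 0.1, the smallest that 3 samples against 3 allow. Without overlap, 23.1% of all genes lay above and 17.8% below in Axin2+/GFP+ cells.

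Dcn encodes decorin, the most widespread member of the family, which binds collagen and holds TGFβ in the matrix. Its log2 values were 7.003, 7.66 and 6.55 in Axin2+/GFP+ replicates 1 to 3 and 7.15, 5.90 and 6.47 in Axin2-/GFP- replicates 1 to 3. The groups overlapped, since Axin2-/GFP- replicate 1 exceeded Axin2+/GFP+ replicates 1 and 3. The log2 change of 0.56 (SE 0.36, limma-adjusted p = 0.292) had a 95% interval from -0.26 to 1.39, which includes both no change and a change as large as that of Aspn. With 1 sample left out it ran from 0.26 to 0.88, and it was 0.16 with the mesenchymal markers as the centre and 1.18 by cyclic loess, without a call in any of these.

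**Figure D1:**
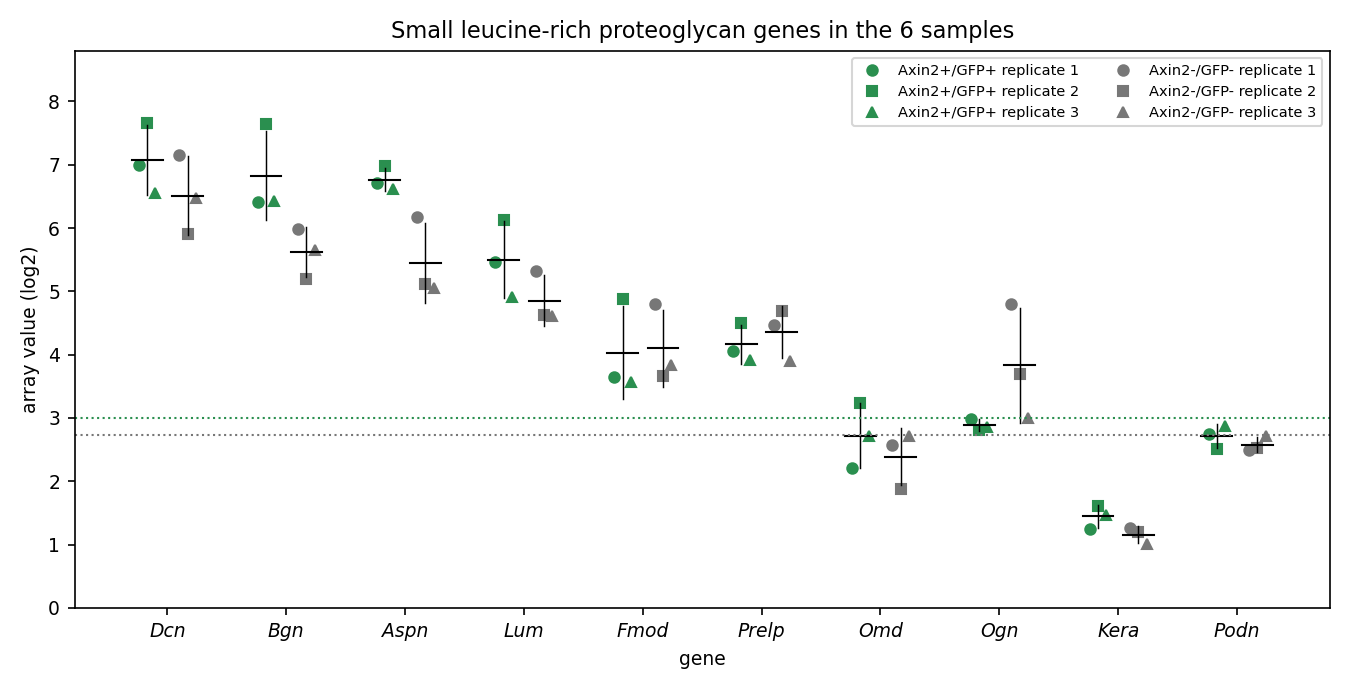
Array values on the log2 scale (vertical axis) are shown for the 10 genes, with circles, squares and triangles for replicates 1, 2 and 3, green for the Axin2+/GFP+ and grey for the Axin2-/GFP- population. Horizontal black bars give means and vertical ones 1 SD to either side. Dotted lines mark the 95th percentile of the olfactory and vomeronasal receptor genes in each population, 2.999 and 2.73. Aspn, Bgn and Ogn do not overlap between populations, and Kera lies below both lines in every sample.

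Among the class II genes none was called. Lum encodes lumican, which regulates the assembly of collagen fibrils in cornea, skin and tendon. It was read at 5.46, 6.12 and 4.91 on the log2 scale in Axin2+/GFP+ replicates 1 to 3 and at 5.32, 4.62 and 4.61 in Axin2-/GFP- replicates 1 to 3. As for Dcn, the groups overlapped through the first Axin2-/GFP- replicate. The log2 change was 0.65 (SE 0.32, limma-adjusted p = 0.194), with a 95% interval from -0.09 to 1.38. It ran from 0.33 to 0.94 with 1 sample left out, without a call.

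Fmod encodes fibromodulin, a tendon proteoglycan that binds collagen I at the site lumican also uses. Its log2 values were 3.65, 4.88 and 3.56 in Axin2+/GFP+ replicates 1 to 3 and 4.79, 3.67 and 3.83 in Axin2-/GFP- replicates 1 to 3. One sample of each population was high and the other values lay together. The log2 change was -0.07 (SE 0.40, limma-adjusted p = 0.911), and its 95% interval of -0.99 to 0.85 leaves room for a change in either direction. Its sign turned after quantile normalization (0.21) and cyclic loess (0.19) and without Axin2+/GFP+ replicate 1 (0.12) or 3 (0.16) or Axin2-/GFP- replicate 1 (0.28).

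Prelp encodes a heparin-binding member that links basement membranes to collagen. It had log2 values from 3.92 to 4.51 in Axin2+/GFP+ and from 3.90 to 4.70 in Axin2-/GFP- samples, and a log2 change of -0.20 (95% interval -0.77 to 0.38), which turned positive after quantile normalization (0.15) and cyclic loess (0.11). Omd encodes osteomodulin, a keratan sulfate proteoglycan of mineralised bone made by osteoblasts. It ranged from 2.20 to 3.23 and from 1.87 to 2.71 in the respective samples, with a log2 change of 0.33 (95% interval -0.37 to 1.03) that turned negative when centred on the mesenchymal markers (-0.071). The Omd level was reached by 9.30% of receptor genes in Axin2+/GFP+ cells and by 9.55% in Axin2-/GFP- cells. Kera encodes keratocan, best known from the cornea. It was read at 1.25 to 1.61 in Axin2+/GFP+ and 1.002 to 1.27 in Axin2-/GFP- samples, and 76.5% of receptor genes reached its level in either population. Its log2 change of 0.29 (95% interval -0.11 to 0.69) stood beside a median of 0.30 for those receptor genes, and it was -0.030 when centred on them and -0.11 when centred on the mesenchymal markers.

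Ogn and Podn lie outside both classes. Ogn encodes osteoglycin, also called mimecan, a small matrix protein of bone and fibrous tissue. It had log2 values of 2.99, 2.81 and 2.86 in Axin2+/GFP+ replicates 1 to 3 and of 4.801, 3.69 and 3.0001 in Axin2-/GFP- replicates 1 to 3. The groups did not overlap, but Axin2-/GFP- replicate 3 reached only the level of the highest Axin2+/GFP+ sample. The means were 2.88 ± 0.09 and 3.83 ± 0.91 (SD, n = 3 each), and Ogn fell short of the threshold at -0.95 (log2 change, SE 0.39, limma-adjusted p = 0.127). The 95% interval, without adjustment, ran from -1.83 to -0.06. The Ogn level was reached by 6.20% of receptor genes in Axin2+/GFP+ and by 0.503% in Axin2-/GFP- cells. All 3 Axin2+/GFP+ values lay below the 95th percentile of those genes (2.999), so the size of the difference is not known and no fold is given. It passed as lower when centred on the receptor genes (-1.26) or on the mesenchymal markers (-1.35) and without Axin2-/GFP- replicate 3 (-1.36), whereas without Axin2-/GFP- replicate 1 it was -0.46. Podn encodes podocan, which binds collagen I and restrains the growth of smooth muscle cells. It ranged from 2.51 to 2.87 in Axin2+/GFP+ and from 2.49 to 2.71 in Axin2-/GFP- samples, with a log2 change of 0.14 (95% interval -0.26 to 0.54) that was negative by cyclic loess (-0.053) and relative to the receptor genes (-0.18) or the mesenchymal markers (-0.26). Its level was reached by 9.30% and 6.45% of receptor genes in the respective populations.

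**Figure D2:**
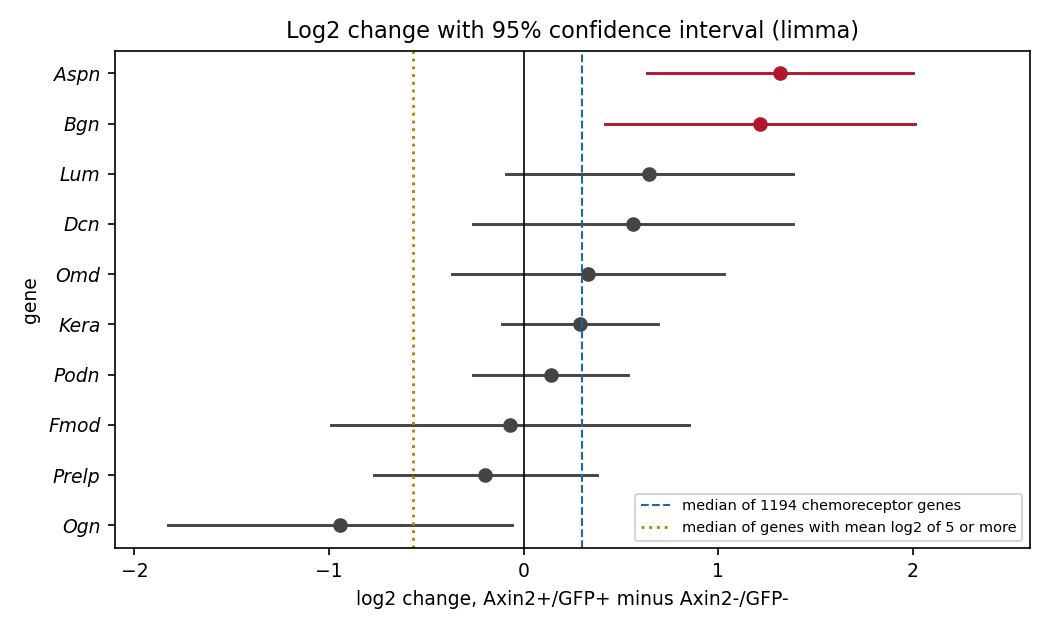
The log2 change between Axin2+/GFP+ and Axin2-/GFP- cells (horizontal axis) is plotted for each of the 10 genes with its 95% confidence interval from limma, in red for genes with an adjusted p under 0.05. A blue dashed line marks the median of the 1194 olfactory and vomeronasal receptor genes (0.30) and a yellow dotted line the median of genes with a mean log2 value of 5 or more (-0.57). The intervals of Aspn and Bgn lie wholly above 0, that of Ogn wholly below 0 before adjustment, and the other 7 include 0.

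Of the 10 genes 8 lie beside another member in 3 runs of adjacent protein-coding genes, by the RefSeq table of GRCm38.p6. On chromosome 13 Ecm2, Aspn, Omd and Ogn follow each other, on chromosome 10 Dcn, Lum, Kera and Epyc, and on chromosome 1 Optc, Prelp and Fmod, while Bgn is on chromosome X and Podn on chromosome 4. Neighbours were compared by the change of one minus the change of the other. The measured changes of Aspn and Ogn, which have Omd between them, differed by 2.26 on the log2 scale. The measured difference between both genes was 3.72 to 4.17 in Axin2+/GFP+ samples and 1.38 to 2.05 in Axin2-/GFP- samples, without overlap. These ranges compare signals of different array features, so neither gives a difference in expression. In all Axin2+/GFP+ samples Ogn also lay below the receptor percentile, so the size of its change is not known. The measured change of Aspn also exceeded that of Omd by 0.99, again without overlap, and that of Omd exceeded that of Ogn by 1.28 with overlap. The mean of Omd lay below the receptor percentile in both populations, so these values are measured signals and not sizes of a change in Omd. On chromosome 10 the changes of Dcn and Lum differed by -0.08 and on chromosome 1 those of Prelp and Fmod by -0.13. Over the 7 pairs of neighbouring members the exact permutation test gave no two-sided p under 0.1, its lower limit in this design, and no adjusted p under 0.35. Both pairs without overlap hold Aspn, whose own samples did not overlap. The share of all gene pairs without overlap was not computed.

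The sequence before the transcription start of the chromosome 13 genes and of Bgn is given to show the start regions of the 2 called genes and of the neighbours whose changes were set against that of Aspn. The RefSeq table of promoters (GRCm38.p6) held 9 start regions of 8 of the 10 genes. The 250 bases up to the start site are printed 5′ to 3′, with the E-box CANNTG in capitals, the motif of basic helix-loop-helix factors such as Twist1 and Scx.
Aspn, chr13:49544193-49544442, plus strand: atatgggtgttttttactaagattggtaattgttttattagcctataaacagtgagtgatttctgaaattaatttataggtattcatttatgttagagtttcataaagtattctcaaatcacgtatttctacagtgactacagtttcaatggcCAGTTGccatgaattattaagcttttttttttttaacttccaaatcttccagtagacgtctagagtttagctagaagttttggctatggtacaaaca
Omd, chr13:49582212-49582461, plus strand: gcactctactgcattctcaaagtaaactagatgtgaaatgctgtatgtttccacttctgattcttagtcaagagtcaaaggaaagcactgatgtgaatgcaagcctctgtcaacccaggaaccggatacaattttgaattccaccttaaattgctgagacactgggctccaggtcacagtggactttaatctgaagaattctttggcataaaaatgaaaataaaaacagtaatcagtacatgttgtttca
Ogn, chr13:49607765-49608014, plus strand: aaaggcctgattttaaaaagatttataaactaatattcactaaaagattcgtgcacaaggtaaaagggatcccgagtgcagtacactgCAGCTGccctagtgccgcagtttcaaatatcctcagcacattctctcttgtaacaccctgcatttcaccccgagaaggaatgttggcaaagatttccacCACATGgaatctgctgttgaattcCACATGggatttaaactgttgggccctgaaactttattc
Bgn, chrX:73483351-73483600, plus strand: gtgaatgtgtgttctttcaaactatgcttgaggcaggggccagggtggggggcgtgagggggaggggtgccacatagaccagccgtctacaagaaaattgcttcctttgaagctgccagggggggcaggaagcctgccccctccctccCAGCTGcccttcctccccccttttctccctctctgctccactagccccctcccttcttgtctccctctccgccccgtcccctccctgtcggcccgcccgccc
On either strand, the E-box occurred in 66.2% of all 32851 start regions of this length and in 6 of the 9 of the family, 3 times before Ogn, once before Aspn and Bgn and not before Omd. TATAAA occurred in 12.4% of all regions and, in the family, 2 times each before Aspn and Ogn, at positions -229 to -178 from the start, where those before Ogn overlap each other. The Runx core ACCACA (14.0% of all regions) occurred once in the family, before Ogn, where it overlaps an E-box. CTTTGA, a core of TCF and LEF sites (13.83%), occurred 2 times before Omd and once before Bgn. GGGCGG, an Sp1 site (32.7%), occurred 3 times before Bgn and 2 times before one of the starts of Podn, and the AP-1 site TGANTCA (6.75%) in none of the 9. Of these bases 30% were G or C before Aspn and 64.4% before Bgn, against a median of 52.4% over all regions.

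Within each population most members were highest in the same replicate, while the lowest replicate was shared less. Axin2+/GFP+ replicate 2 was the highest of its 3 for 8 of the 10 genes, all except Ogn and Podn, whereas it was the highest for 34.6% of all genes. Axin2-/GFP- replicate 1 was the highest of its 3 for 7 genes, all except Prelp, Omd and Podn, against 32.8% of all genes. The most frequent lowest sample was replicate 3 in both populations, for 5 of the 10 genes each. It was the lowest for 31.4% of all genes in Axin2+/GFP+ and for 34.8% in Axin2-/GFP- cells. The mean log2 value over the 10 genes was 4.25, 4.79 and 4.19 in Axin2+/GFP+ replicates 1 to 3 and 4.50, 3.85 and 3.90 in Axin2-/GFP- replicates 1 to 3, so that the populations overlapped. In the Axin2-/GFP- samples the neutrophil list was also highest in replicate 1, at 7.69 against 6.44 and 5.83, as was the mesenchymal list, at 3.78 against 3.64 and 3.55. In the Axin2+/GFP+ samples the collagen list described below was highest in replicate 2, at 5.92 against 5.401 and 5.51, as was the mesenchymal list, at 4.12 against 4.10 and 3.95. The part of cell mixture in these replicate levels was not tested.

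**Figure D3:**
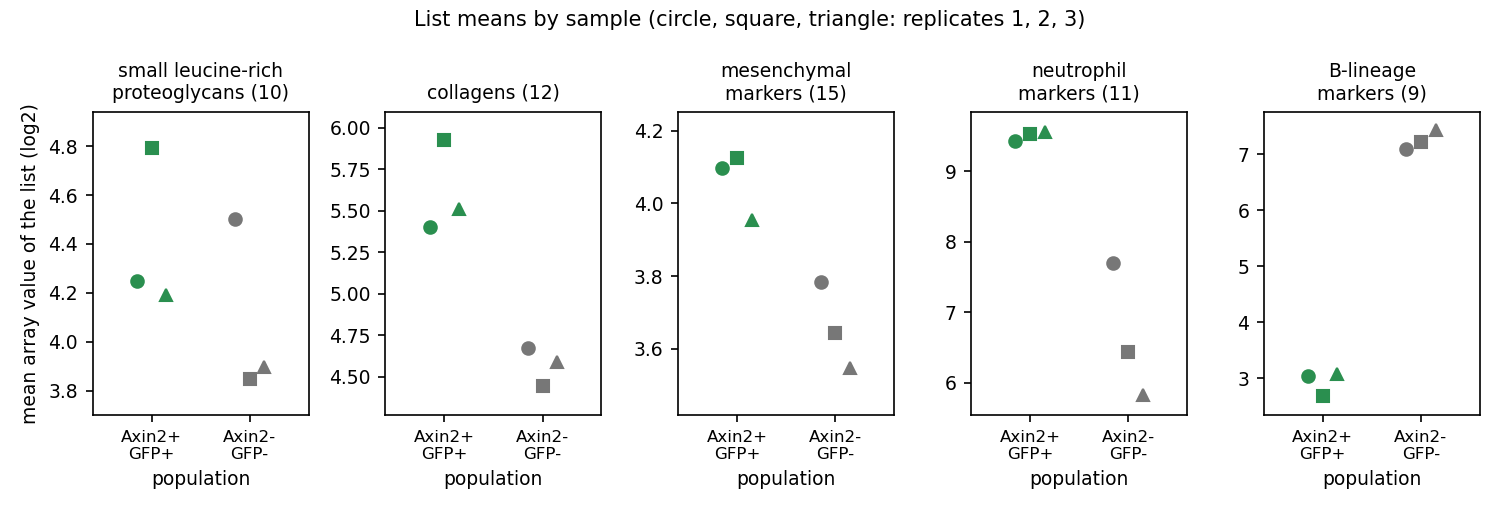
The mean log2 array value of 5 gene lists (vertical axes, each with its own range) is plotted per sample, with circles, squares and triangles for replicates 1, 2 and 3, in green for Axin2+/GFP+ and grey for Axin2-/GFP- cells. The proteoglycan means overlap between populations, with replicate 2 highest among Axin2+/GFP+ samples (4.79) and replicate 1 highest among Axin2-/GFP- samples (4.50), whereas the other 4 lists do not overlap.

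The collagens that these proteoglycans bind were read in the same samples. Of 12 genes of fibrillar and associated collagens 9 were higher and none lower by limma, for 11 the groups did not overlap, and the median log2 change was 0.98. Over all genes 4.64% were called higher, and 23.1% lay above without overlap. Without adjustment 11 of the 12 collagen genes had a p under 0.05, all higher, and the methods' t-test with adjustment called 1 of them higher. Col3a1, a fibrillar collagen of soft connective tissue, had a log2 change of 1.95 (limma-adjusted p = 0.00139). Col1a2 and Col1a1, the chains of bone collagen, had changes of 1.72 (adjusted p = 0.00139) and 1.66 (adjusted p = 0.00286), and Col6a1, of the beaded filaments bound by decorin and biglycan, of 1.07 (adjusted p = 0.00713). For these 4 genes the groups did not overlap. The number of collagen genes higher was 5, 4 and 5 without Axin2-/GFP- replicate 1, 2 or 3, and 4 when centred on the receptor genes or on the mesenchymal markers. Over all genes it was 926 as deposited, 288, 260 and 239 without those replicates, and 210 and 165 in those centrings.

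The 8 measured relatives outside the 10 genes, among them Epyc, Optc, Chad and Ecm2, gave no call in limma or in the methods' t-test after adjustment. At an unadjusted p under 0.05 limma put 4 higher and the methods' t-test 1, against 16.3% and 14.8% of all genes. Epyc, epiphycan of growth cartilage, had a log2 change of 0.51 (limma-adjusted p = 0.0702) and Chad, chondroadherin, of 1.11 (adjusted p = 0.107). The Epyc level was reached by 16.2% and 20.9% of receptor genes in the Axin2+/GFP+ and Axin2-/GFP- cells. One gene of this list was called higher under the replicate block, by quantile normalization, by cyclic loess and without Axin2+/GFP+ replicate 3. Of 23 core proteins of other proteoglycan classes 3 were higher and 1 lower, against 4.64% and 11.4% of all genes. The 3 higher ones were the glypicans Gpc1 at 1.10 (limma-adjusted p = 0.0164) and Gpc3 at 1.03 (adjusted p = 0.0426) and neurocan, Ncan, at 1.01 (adjusted p = 0.0456). Sdc4, the transmembrane proteoglycan syndecan-4, fell by 0.85 on the log2 scale (adjusted p = 0.0208). None of the 3 stayed higher without Axin2-/GFP- replicate 1, 2 or 3, in the methods' t-test, or when centred on the receptor genes or the mesenchymal markers. The count was 1 after median centring, after quantile normalization and without Axin2+/GFP+ replicate 2. That of lower genes was 0 in the methods' t-test, without Axin2+/GFP+ replicate 3 or Axin2-/GFP- replicate 2 or 3 and after quantile normalization or cyclic loess.

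Most enzymes that build the sugar chains were not called, and over all genes 4.64% were called higher and 11.4% lower. Of 22 enzymes of the linker and of chondroitin and dermatan sulfate 1 was higher and 2 were lower. Chst3, which sulfates chondroitin at the 6 position, averaged 2.603 ± 0.30 in Axin2+/GFP+ and 5.49 ± 0.34 in Axin2-/GFP- cells (SD, n = 3 each), and so differed by -2.89 (SE 0.23, limma-adjusted p = 0.000252). The Chst3 level of the Axin2+/GFP+ cells was reached by 12.1% of receptor genes. Chst12, a chondroitin 4-O-sulfotransferase, rose by 1.04 (adjusted p = 0.0175), and Xylt1, which attaches the first sugar to the core protein, fell by 0.79 (adjusted p = 0.0394). None was higher in the methods' t-test or relative to the receptor genes or the mesenchymal markers, and 2 were without Axin2+/GFP+ replicate 1. Without Axin2-/GFP- replicate 2 or 3 none was higher and 1 was lower, while 4 were lower when centred on the receptor genes and 6 when centred on the mesenchymal markers. The lower count was 1 in the methods' t-test, with the trend or the block, after quantile normalization or cyclic loess and without Axin2+/GFP+ replicate 1 or 2 or Axin2-/GFP- replicate 1. Of 10 enzymes of keratan sulfate and tyrosine sulfation none was higher, by limma, by the methods' t-test or at an unadjusted p under 0.05, and 2 were lower. These were B4galt1, a galactosyltransferase, at -1.57 (limma-adjusted p = 0.00121) and B3gnt2, which extends the poly-N-acetyllactosamine backbone, at -1.40 (adjusted p = 0.0149). Both enzymes also act on other glycoproteins. The number lower was 1 without Axin2-/GFP- replicate 1 or 3, in the methods' t-test and after quantile normalization or cyclic loess. The 9 markers of B cells also differed between these samples, and their part in these changes was not tested.

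Of 18 growth factors and receptors that decorin or biglycan are known to bind, 1 was higher and 1 lower. Tgfb1 fell by 1.70 on the log2 scale (SE 0.25, limma-adjusted p = 0.00334) and Tgfb3 rose by 0.92 (adjusted p = 0.0402), each without overlap of the groups. Both are TGFβ ligands, and the higher count was 0 after each of the 5 other scalings and without Axin2+/GFP+ replicate 2 or Axin2-/GFP- replicate 1 or 3. It was 3 without Axin2+/GFP+ replicate 3, and the methods' t-test called none of the 18 in either direction. Of 10 proteases that cut members of the family 4 were higher and none lower by limma, against 6 and 0 without adjustment and 0 and 0 in the methods' t-test with adjustment. Limma called 4.64% of all genes higher and 11.4% lower with adjustment, and 16.3% and 17.6% without it. Mmp2, a gelatinase that also cleaves decorin, rose by 1.46 (limma-adjusted p = 0.0124). The aggrecanases Adamts4 and Adamts5 rose by 0.71 (adjusted p = 0.0371) and 0.89 (adjusted p = 0.0476), and Tll1, a tolloid protease, by 0.63 (adjusted p = 0.0390). The Tll1 level in Axin2+/GFP+ cells was reached by 41.4% of receptor genes and that of Adamts5 by 16.0%. Without Axin2-/GFP- replicate 1, 2 or 3 the count was 1, 0 and 1, without Axin2+/GFP+ replicate 3 it was 2, as it was with the block, after cyclic loess and under the filter on dim genes, and it was 1 after median centring, quantile normalization and either centring on a gene list.

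**Figure D4:**
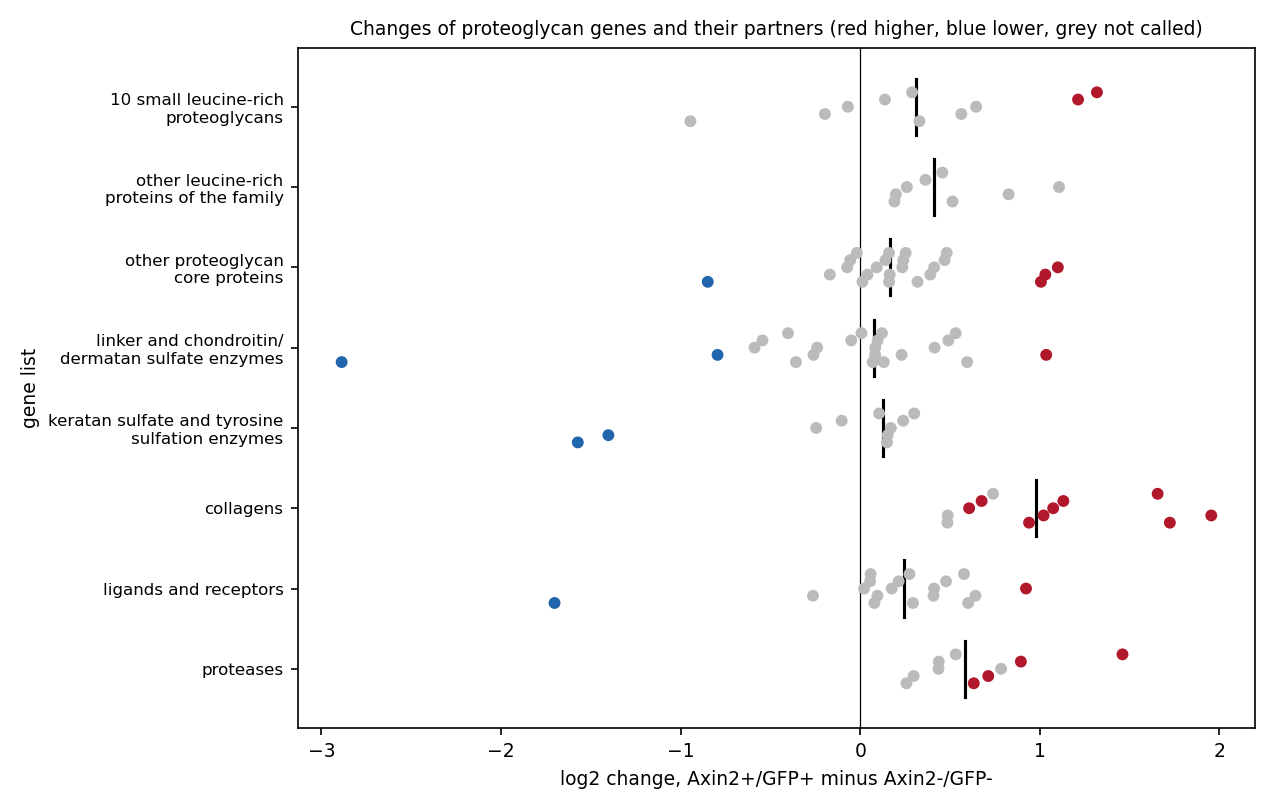
The log2 change between Axin2+/GFP+ and Axin2-/GFP- cells (horizontal axis) is plotted for each measured gene of 8 lists, with 1 point per gene, red for higher and blue for lower at an adjusted p under 0.05, grey for genes not called, and a black bar at the median. The collagens lie wholly above 0 with a median of 0.98, and the 10 small leucine-rich proteoglycans spread from -0.95 to 1.32 around a median of 0.31.

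Markers of other cells that could hold or lack these genes moved as follows, where limma called 4.64% of all genes higher and 11.4% lower. Of 8 measured osteoblast and osteocyte genes 3 were higher, namely Ibsp (bone sialoprotein, 1.84), Sost (sclerostin of osteocytes, 1.18) and Dmp1 (0.88). The level of Dmp1 was reached by 12.7% of receptor genes in Axin2+/GFP+ and by 34.3% in Axin2-/GFP- cells. Of 9 tendon and fibrous genes 2 were higher, Mkx (0.84), a transcription factor of tendon, and Egr1 (0.68), which is also an immediate early gene. The level of Mkx was reached by 4.77% of receptor genes in Axin2+/GFP+ and by 13.6% in Axin2-/GFP- cells. Of 8 chondrocyte genes Col9a2 (0.84) and Col10a1 (0.58) were higher. The level of Col10a1 was reached by 10.4% and 17% of receptor genes in the respective populations, and the median change of the receptor genes was 0.30. None of these 3 lists held a lower gene as deposited, and 1 osteoblast and osteocyte gene was called lower after median centring and relative to the receptor genes or the mesenchymal markers, while lower genes as deposited without adjustment numbered 1, 0 and 0 respectively. The methods' t-test called none of the 3 lists' genes after adjustment. The tendon and chondrocyte lists held no call without Axin2+/GFP+ replicate 2, without Axin2-/GFP- replicate 1, 2 or 3 and relative to the receptor genes or the mesenchymal markers. The tendon list also held none under the replicate block, after median centring and without Axin2+/GFP+ replicate 1, and the chondrocyte list none without Axin2+/GFP+ replicate 3. Without Axin2+/GFP+ replicate 3 the tendon list held 3. Of 9 macrophage and monocyte markers 2 were lower, Cd68 (-1.49) and Ccr2 (-1.41), and of 8 endothelial markers 1, Pecam1 (-2.23). The macrophage list had 4 changes above 0 and 5 below, with a median of -0.16. The endothelial list had 5 above 0 and 3 below, with a median of 0.11. After adjustment the methods' t-test called 1 macrophage marker lower and 0 endothelial ones. Under the filter on dim genes 1 endothelial marker was higher and 1 lower. Among 4 measured erythroid markers Klf1 (0.74) was higher and Alas2 (-1.68) lower. Neither was called in the methods' t-test or without Axin2+/GFP+ replicate 1 or 2 or Axin2-/GFP- replicate 1 or 2. No erythroid marker was higher relative to the receptor genes or the mesenchymal markers, under the filter on dim genes or without Axin2-/GFP- replicate 3, and none was lower by quantile normalization, by cyclic loess or without Axin2+/GFP+ replicate 3. Centred on the receptor genes, 4 macrophage and 3 endothelial markers were lower. The share of these cells in the values of Aspn, Bgn and Ogn was not tested.

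Of the calls over all genes, 29.0% were higher as deposited, 16.0% after median centring, 37.8% by quantile normalization, 5.01% relative to the receptor genes and 3.56% relative to the mesenchymal markers. The median log2 change of all genes was 0.14 as deposited, 0.05 after median centring, 0.01 by cyclic loess, -0.18 relative to the receptor genes and -0.26 relative to the mesenchymal markers. Measured against the mesenchymal markers, Aspn remained higher at 0.92 (limma-adjusted p = 0.0301), Ogn was lower at -1.35 (adjusted p = 0.0153), and the median of the 10 genes was -0.09. Of the 15 markers in this centring 5 lay at the level of the receptor genes in each population. All Axin2+/GFP+ values of Ogn lay under the receptor percentile, so the size of its change is not known.

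**Figure D5:**
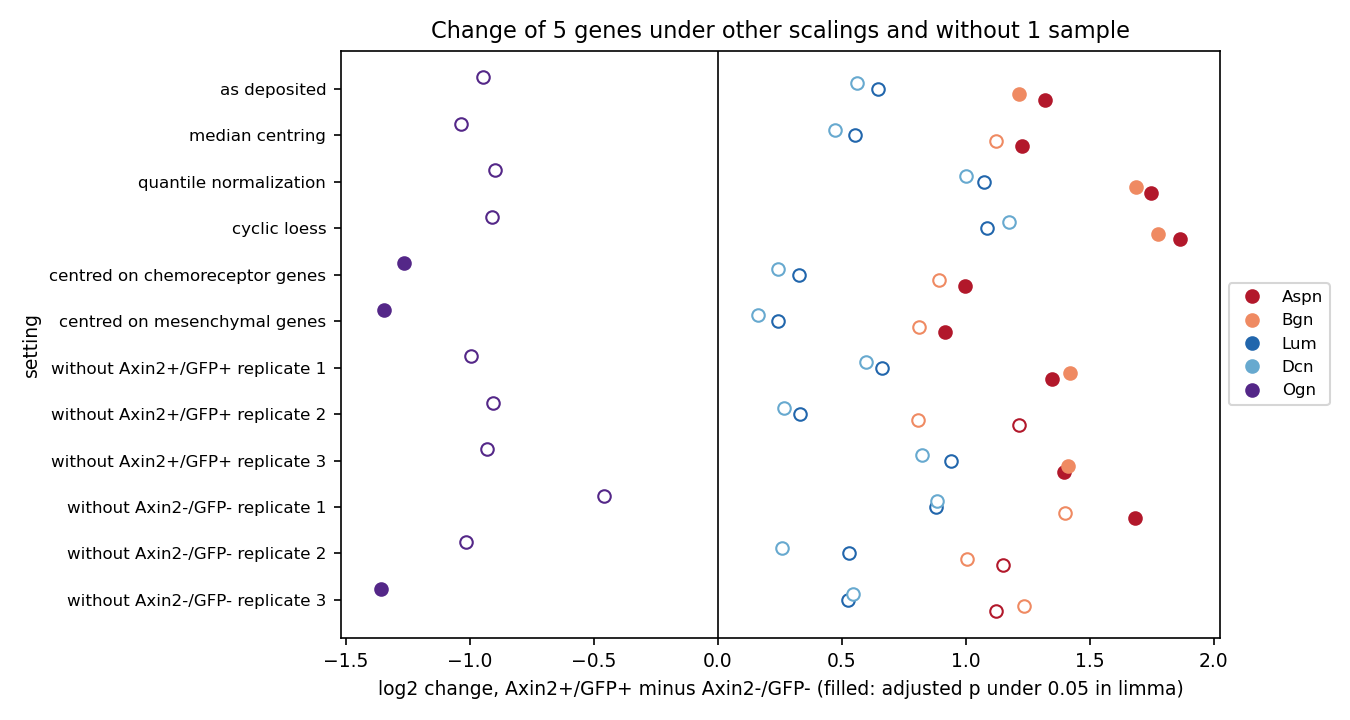
The log2 change of Aspn, Bgn, Lum, Dcn and Ogn (horizontal axis) is plotted under 6 scalings and with each of the 6 samples left out (vertical axis), with filled symbols for an adjusted p under 0.05 in limma. Ogn lies below 0 and the other 4 genes above 0 in each of these settings, with Aspn filled in 9 of the 12, Bgn in 5 and Ogn in 3.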

How the data were processed

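Total RNA of the sorted cells was labelled for Affymetrix whole-transcript arrays, with 1 array per sample. The authors deposited log2 values per array feature, which per the submitters' notes on processing were made by RMA in R 3.2.1. For the probe set level the sources used here give nothing, and the log2 scale was taken from the range of the values. Of 35557 features 21789 carried 1 gene symbol, of which 21698 were matched by gene identifier to RefSeq. A gene was read by its brightest feature. All columns were matched to a sample.

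The 19938 genes entered lmFit and eBayes of limma 3.58.1 (R 4.3.3), with p-values adjusted by Benjamini-Hochberg and a threshold of 0.05, and the procedure was tested on simulated data. By their labels the samples are biological replicates. Alternatives were a trend, the methods' t-test, the replicate block, 5 scalings, a minimum mean of 3 on the log2 scale, the mean of a gene's features and leaving out each sample. The members and the 16 other lists were chosen with earlier results of these data known. Besides the members, the text names up to 4 called genes of each list by smallest p, or the 2 smallest p where none was called. The number of arrays limits the precision.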

Additional observations from a re-analysis of the deposited data

How the results depend on the processing

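Beside 2 members higher and 0 lower as deposited, 0 were higher in the methods' t-test, and 1 was higher with the replicate block, after median centring and after centring on the receptor genes or on the mesenchymal markers, with 1 lower in the last 2. With 1 sample left out 0 to 2 were higher and 0 to 1 lower. Over all genes 926 were higher and 2265 lower as deposited, 211 and 518 in the methods' t-test, 643 and 2201 with the replicate block, 500 and 2634 after median centring, 768 and 1266 after quantile normalization, 785 and 1468 by cyclic loess, 210 and 3980 relative to the receptor genes, 165 and 4465 relative to the mesenchymal markers and 464 and 2269 under the filter on dim genes, which kept 7 of the 10 members. With 1 sample left out, 239 to 852 were higher and 1376 to 2082 lower. The labels number the samples but do not say whether like-numbered ones came from the same mice, so pairing is not known. Deviations of like-numbered samples from their group means correlated at 0.031, 0.011 and 0.053, which cannot decide it. The replicate block ended the call of Bgn and no other member's call changed with it. Signs that turned were those of Fmod after quantile normalization (0.21) and cyclic loess (0.19) and without Axin2+/GFP+ replicate 1 (0.12) or 3 (0.16) or Axin2-/GFP- replicate 1 (0.28), with a range of -0.49 to 0.28 over samples left out, of Prelp after quantile normalization (0.15) and cyclic loess (0.11), of Kera when centred on the receptor genes (-0.030) or mesenchymal markers (-0.11), of Omd when centred on the latter (-0.071) and of Podn after cyclic loess (-0.053) and both centrings (-0.18 and -0.26). Dcn, Lum, Aspn, Bgn and Ogn kept their sign in all 16 alternatives. The causes were not tested. Kera, Omd and Podn in both populations, and Ogn in Axin2+/GFP+ cells, had signals near those of receptor genes, which limits what these arrays show of them.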

Other observations

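Among the 1718 other genes with a mean log2 value of 5 or more, those whose values over the 6 samples, centred on each gene's mean, lay nearest to the profile of Dcn were Apod, Lum, Bri3, Osm and Ccn1, at root mean square differences of 0.17, 0.20, 0.22, 0.26 and 0.28 on the log2 scale. Nearest to Bgn were Adam8, App, 1700054O19Rik, Ppic and Sparc, at 0.20, 0.23, 0.28, 0.31 and 0.31. Of the other 9 members Lum was the nearest to both Dcn and Bgn (0.20 and 0.37) and Ogn the farthest from both (0.92 and 1.25). These distances over 6 samples are a description without a test.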
